A study of Arabidopsis thaliana with 8 samples.

Results

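A set of 9 Arabidopsis loci that encode calmodulin-like and other EF-hand proteins was followed over 8 ATH1 arrays. The 9 loci were AT3G47480, AT5G39670, AT1G76650 (CML38), AT1G76640, AT3G01830, AT5G42380 (CML37), AT3G50770 (CML41), AT2G46600 and AT4G27280, and each had 1 probe set that names it alone, of 13436 probe sets naming a single locus and 22746 in all. They were chosen by locus with the root iodide signals of these arrays already known, so their root values under iodide are a description and were not tested. The plants, of ecotype Columbia 0, were grown in hydroponics for 3 weeks on a basal solution whose iodine, present only as a contaminant, is given as 8 nM by the labels. The methods describe the same figure as a detection limit that the solution stayed below, so it is read here as an upper bound. Controls stayed on that solution, and the others received 10 μM of KBr, NaI or KI in it for 48 h before rosettes (called shoot here) and roots were collected. Each of the 8 combinations of treatment and tissue was read on 1 array, from the pooled tissue of 3 plants. There is therefore no replicate spread, and no p-value, SD or interval accompanies any value. KBr served as the control for another halide, and it shares potassium with KI.

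Calcium entering the cytosol is a common early signal of touch, wounding, pathogens and low oxygen in plants. It is read by proteins with EF-hands, helix-loop-helix motifs whose loop holds the calcium ion and whose fold opens when it is bound. Calmodulin is the classic sensor of this kind, and the calmodulin-like (CML) proteins are its relatives, many of whose genes are themselves switched on by the stimuli that raise calcium. Among the genes followed here, CML37 is known for a part in defence against chewing insects, CML38 for its induction in low oxygen and its presence in stress granules, and CML41 for callose deposition at plasmodesmata during immune responses. AT3G47480, AT5G39670 and AT3G01830 are annotated as calcium-binding EF-hand proteins. AT1G76640 carries the synonym CML39 in RefSeq, but RefSeq also gives that synonym to CML37, so the locus code is used here.

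Signals are MAS5 intensities on a linear scale, and a signal of 100 was the study's limit for a well-expressed gene. On each array 58.5% to 61.7% of probe sets reached it. The labelled tissues were checked against marker genes. Of 10 listed genes of green tissue 2 had a probe set naming them alone, LHCB4.1 (a light-harvesting protein) and RCA (the activase of Rubisco). Their summed signals were 59006 to 72438 in shoot and 159 to 301 in root. Of 12 listed root genes 2 had such a probe set, PYK10 (a root beta-glucosidase) and EXPA7 (a root hair expansin). Their sums were 7711 to 11731 in root and 170 to 401 in shoot. Most of the root sum was PYK10, at 8042 (control), 10000 (KBr), 7129 (NaI) and 8544 (KI). EXPA7 was lower with iodide, at 1917, 1731, 582 and 635 in the same order. Root and shoot RNA were extracted by different methods according to the paper, whereas the labels give a single one, so tissue and extraction cannot be told apart where root is set against shoot. In whole organs, more cells of a type and more transcript per cell cannot be told apart either.

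In root, 8 of the 9 probe sets were brighter on both iodide arrays than on the control array, and the exception was AT1G76640. Of all probe sets 47.1% were above control in NaI and 44.0% in KI. A probe set was called higher when it was at least 4-fold above control with a signal of at least 100, and iodide-specific when both iodide salts met this and KBr did not. By that rule 6 of the 9 were iodide-specific and higher (AT3G47480, AT5G39670, CML38, AT3G01830, CML37 and CML41), where 1.49% of all probe sets were. The same 6 were called in NaI alone (1.68% of all) and in KI alone (1.71%), and 0 of the 9 in KBr (0.0044%). As the genes were chosen with these values known, nothing is read from the difference between the members and the background.

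**Figure D1:**
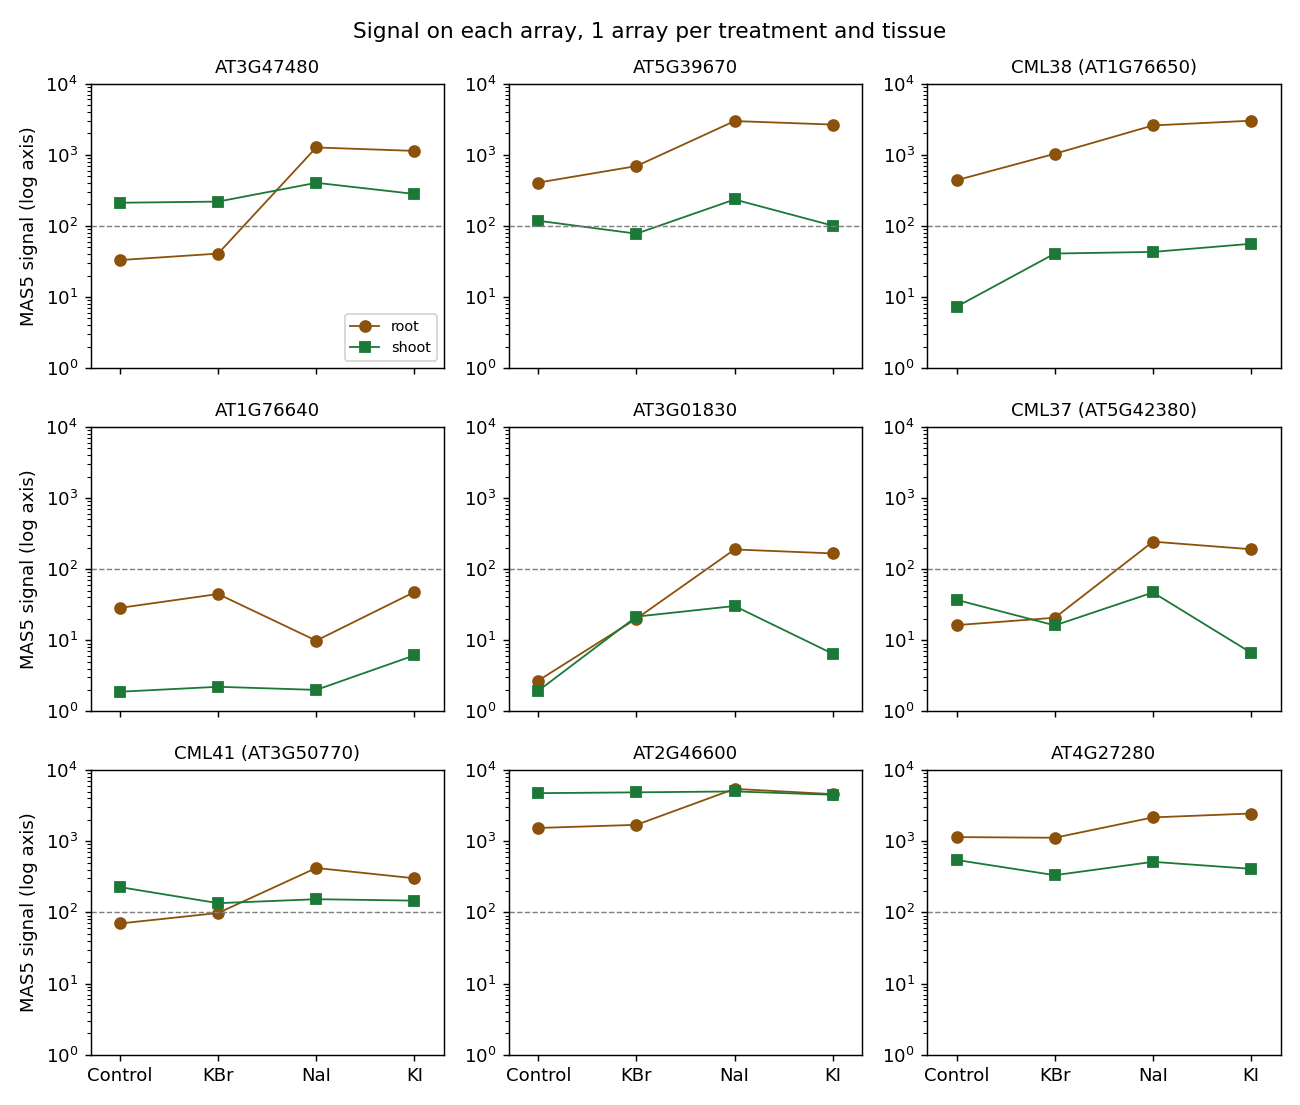
MAS5 signal (log axis) of the 9 genes on the control, KBr, NaI and KI arrays of root (brown circles) and shoot (green squares), 1 array a point, with the dashed line at a signal of 100. In root 8 of the 9 stand higher on both iodide arrays than on the control array, while the shoot lines stay flatter or lie under the dashed line.

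AT3G47480 had larger ratios than any of the others except AT3G01830, which was dim. Its root signal was 33.1 without added salt and 40.8 with KBr, against 1267 with NaI and 1134 with KI. Both iodide arrays thus stood far above the pair without iodide, 38.3-fold over control in NaI and 34.2-fold in KI. The control signal is dim, and with every signal under 100 raised to 100 the folds were 12.7 and 11.3.

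AT5G39670 was well above 100 on every root array, at 407 without salt, 694 with KBr, 2978 with NaI and 2657 with KI. It was 7.32-fold over control in NaI and 6.54-fold in KI, folds that do not rest on a dim array. KBr lay between, at 1.71-fold.

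CML38 had the largest ratio of KBr to control among the genes whose control signal reached 100. Its root signal went from 439 on the control array to 1033 with KBr, 2584 with NaI and 3012 with KI. Relative to control, KBr was thus 2.35-fold higher, NaI 5.88-fold and KI 6.86-fold. CML38 was the only one of the 9 that was at least 2-fold over control in root KBr with a signal of 100, as were 0.255% of all probe sets. Set against KBr instead of control, KI was 2.92-fold and NaI 2.50-fold higher, under the 4-fold limit.

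CML37 and AT3G01830 were dim without iodide. CML37, the gene linked to insect defence, read 16.3 on the control and 20.7 on the KBr array, against 243 with NaI and 190.4 with KI. AT3G01830 read 2.72 and 20.2 on those arrays without iodide, against 189 with NaI and 166 with KI. Both crossed the limit of 100 only on the iodide arrays. Their nominal ratios to control in NaI and KI, 14.9 and 11.6 for CML37 and 69.5 and 61.2 for AT3G01830, depend on control signals near the bottom of the scale. With low signals raised to 100 the same ratios were 2.43 and 1.90 for CML37 and 1.89 and 1.66 for AT3G01830, so only their presence above 100 under iodide is well read.

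CML41, the plasmodesmal member, was just inside the 4-fold limit. It read 69.9 (control) and 98.1 (KBr) in root, against 421 with NaI and 302 with KI, or 6.02-fold and 4.32-fold over control. Its signals without iodide were under 100, and with low signals raised to 100 the folds were 4.21 and 3.02, which ends the call. Just outside the limit was AT2G46600, at 1538 without salt and 1700.4 with KBr, against 5445 with NaI and 4593 with KI. Its ratios of 3.54 in NaI and 2.99 in KI come from signals far above 100 on all 4 root arrays. It and the 6 called genes make 7 of 9 that were at least 2-fold over control with both iodides, against 3.69% of all probe sets.

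AT4G27280 had the smallest iodide difference of the genes that were read above 100. It read 1144 without salt and 1119.8 with KBr, against 2164 with NaI and 2453 with KI. The KBr and control arrays were nearly equal and the iodide arrays were 1.89-fold and 2.14-fold over control. AT1G76640 stayed below 100 on all 8 arrays. Its root signals ranged from 9.88 (NaI) through 28.6 (control) and 44.7 (KBr) to 47.6 (KI), and no order is read from them. AT1G76640 is the direct neighbour of CML38 in the RefSeq annotation, so of these adjacent CML genes one was bright under iodide in root and the other was not read at all. The gene on the other side of CML38, AT1G76660, stayed between 288 (KBr) and 343 (NaI) in root.

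**Figure D2:**
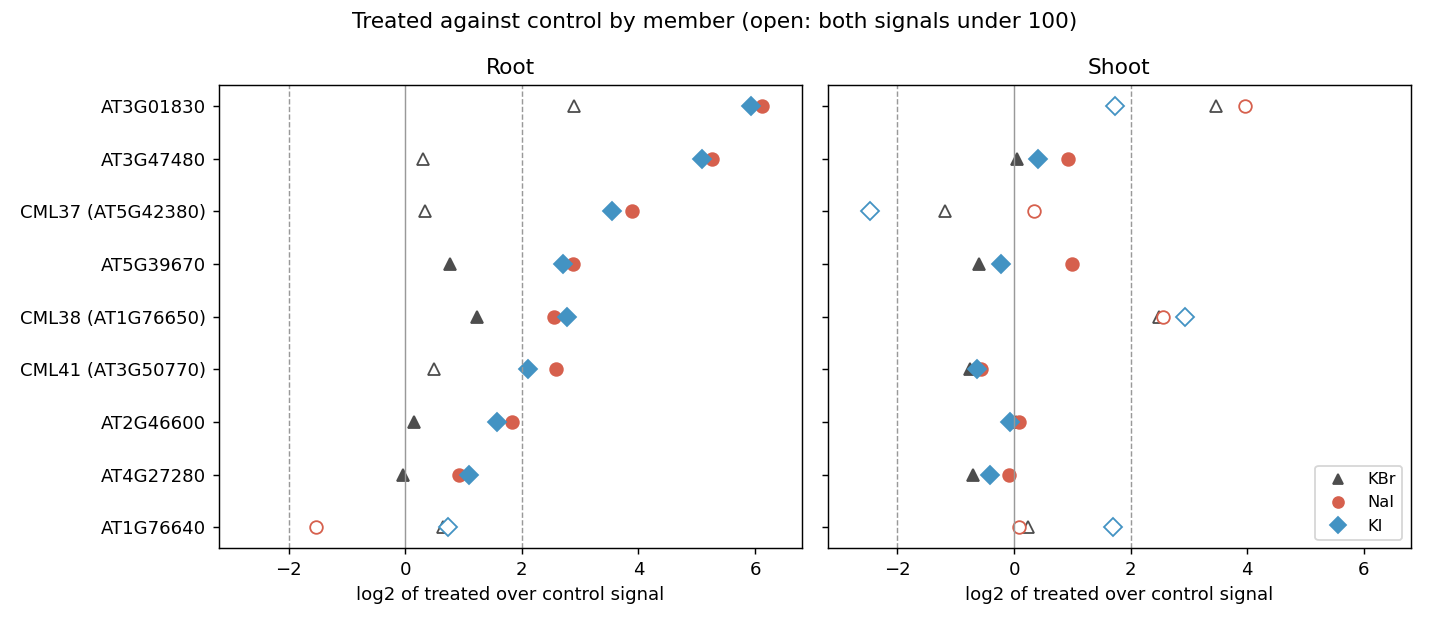
Log2 of treated over control signal for each gene in root (left) and shoot (right), for KBr (grey triangles), NaI (red circles) and KI (blue diamonds), with genes ordered by their mean root iodide ratio and dashed lines at 4-fold. Open symbols mark ratios of signals that were both under 100, and no filled symbol in shoot reaches a dashed line.

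The NaI and KI arrays of root gave similar readings. For 8 of the 9 genes they differed by at most 0.48 on the log2 scale, the value of CML41, and AT1G76640, which is not read, differed by 2.27. The median size of the difference was 0.22 among the 9 and 0.22 among all probe sets. Signals were higher in NaI than in KI for AT3G47480, AT5G39670, AT3G01830, CML37, CML41 and AT2G46600, and higher in KI for CML38 and AT4G27280. The NaI and KI arrays share iodide and differ in the cation.

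By nominal signal, bromide stood between control and iodide in root for most of the genes. In 7 of the 9 (all but AT4G27280 and AT1G76640) control was the lowest signal, KBr the next and both iodides the highest, an order that 12.5% of all probe sets had. For AT3G47480, AT3G01830, CML37 and CML41 the control and KBr signals were both under 100, so their step from control to KBr is not read. The order of the 7 also includes the iodide values with which the genes were chosen. The KBr ratio shares the 1 control array of root with the iodide ratios, so it is not independent of the choice either. It was above 1 in 8 of 9, with a median log2 ratio of 0.49, where 49.0% of all probe sets were above 1 and their median was -0.01, and nothing is read from that difference. With signals under 50 raised to 50, or those under 100 raised to 100, the median of the 9 was 0. Among the genes with control signals of at least 100 the KBr ratios were 2.35 for CML38, 1.71 for AT5G39670, 1.11 for AT2G46600 and 0.979 for AT4G27280, so the bromide difference was mostly that of CML38 and AT5G39670. The ratio of 7.42 for AT3G01830 comes from signals of 2.72 and 20.2 and carries no weight.

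Iodide was also set against bromide, which leaves the control array out. The root iodide signals by which the genes were chosen remain in these ratios, so nothing is read from their difference to all probe sets. The log2 ratio of KI over KBr, which share potassium, had a root median of 1.62 over the 9 genes and -0.04 over all probe sets. Iodide exceeded bromide in each of the genes read above 100. AT3G47480 was 27.8-fold higher in KI and 31.0-fold in NaI than in KBr, CML37 9.18-fold and 11.7-fold, and AT3G01830 8.26-fold and 9.38-fold. These 3 were at least 4-fold above KBr with both iodides, as were 1.13% of all probe sets. Their KBr signals were all under 50, and with low signals raised to 100 only AT3G47480 stayed past 4-fold, at 11.3-fold in KI and 12.7-fold in NaI, with CML37 at 1.90 and 2.43 and AT3G01830 at 1.66 and 1.89. With a signal of 100 asked of both arrays the count was 0. AT5G39670 reached 3.83-fold and 4.29-fold, and CML41 3.08-fold and 4.29-fold. AT2G46600 was 2.70-fold and 3.20-fold above KBr, and AT4G27280 2.19-fold and 1.93-fold.

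**Figure D3:**
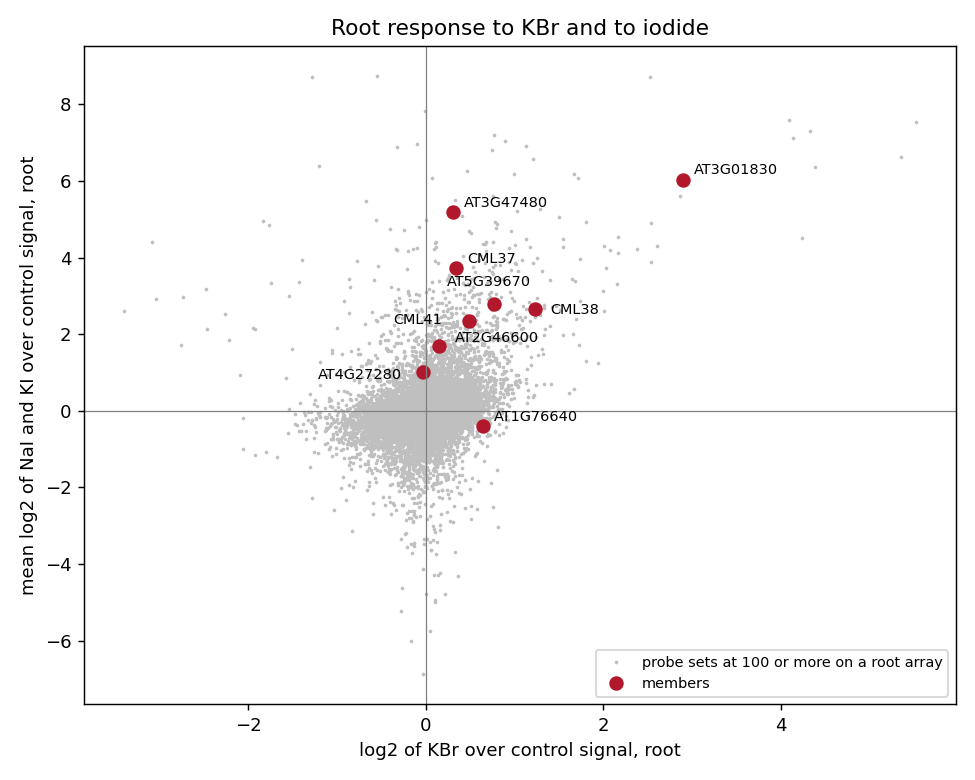
For root, the log2 of KBr over control signal (x axis) and the mean of the log2 ratios of NaI and KI over control (y axis), with the 9 genes in red and, in grey, the probe sets that reached 100 on at least 1 root array. The genes lie from 1.01 (AT4G27280) to 6.03 (AT3G01830) on the iodide axis apart from AT1G76640 at -0.40, and CML38 is the farthest to the right of those with a control signal of at least 100.

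In shoot 0 of the 9 genes were called iodide-specific, where 0.0747% of all probe sets were, and 0 were called higher in NaI (0.233%), in KI (0.347%) or in KBr (0.0352%). A count of 0 among 9 is near a background this low, so it is no result about these genes. Likewise 0 of 9 were at least 4-fold above KBr with both iodides in shoot, against 0.0308% of all probe sets. At the lower limit of 2-fold over control with both iodides, again with a signal of 100, 0 of 9 qualified, against 0.822% of all. The median log2 ratio of the 9 was 0.35 in NaI, -0.08 in KI and 0.04 in KBr. Over all probe sets it was -0.06, 0.04 and -0.06 in the same order. The NaI median is the ratio of CML37, which was under 100 on every shoot array, so no shift is read from it.

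The median size of the log2 difference between NaI and KI in shoot was 0.52 over the 9 genes and 0.31 over all probe sets. Over the 5 genes that reached 100 on at least 3 shoot arrays it was 0.33. Over the 15105 brighter probe sets it was 0.20, lower than in these 5 genes. AT3G47480 read 212 without salt, 219.7 with KBr, 404 with NaI and 281 with KI. AT5G39670 read 118, 77.8, 235 and 101 in the same order. For both, the NaI array was the highest, 1.91-fold and 1.99-fold over control, and KI stayed within 1.33-fold of control on either side. The NaI signal of AT5G39670 was 2.33-fold that of KI in shoot, against 1.12-fold in root.

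CML41 was highest in the untreated shoot, at 227, and lower with each salt, at 135 for KBr, 153 for NaI and 146 for KI. The log2 ratios to control were -0.75, -0.56 and -0.63, so bromide and iodide did not separate. AT4G27280 was likewise highest in the untreated shoot, at 545, with 333 for KBr, 513 for NaI and 409.7 for KI. AT2G46600 stayed within 1.06-fold of control in shoot, between 4501 (KI) and 5016 (NaI), the same probe set that was about 3-fold brighter under iodide in root. CML38 was dim in shoot, at 7.33, 40.9, 43.1 and 56.1. AT3G01830 (1.95 to 30.3), CML37 (6.69 to 47.0) and AT1G76640 (1.89 to 6.13) were below 100 on every shoot array too. Iodide over bromide had a shoot median of 0.30 for KI and 0.50 for NaI on the log2 scale, over 9 genes of which 4 are not read.

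Without iodide the genes had no common tissue bias. In control, root exceeded shoot for CML38 (59.9-fold), AT5G39670 (3.44-fold) and AT4G27280 (2.10-fold), and shoot exceeded root for AT3G47480 (6.39-fold), CML41 (3.24-fold) and AT2G46600 (3.08-fold). The remaining 3 genes were below 100 in both tissues. The root signals of AT3G47480 and CML41 in control were under 100, and with low signals raised to 100 shoot exceeded root by 2.12-fold and 2.27-fold. The shoot signal of CML38 in control was 7.33, and with it raised to 100 root exceeded shoot by 4.39-fold. On the NaI and KI arrays root was at least as bright as shoot for the 8 genes that were read, so 3 genes with a shoot bias in control had none under iodide. Root was above shoot in 57.0% of all probe sets in NaI and in 50.8% in KI.

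AT3G47480 reversed its order. Shoot was 5.38-fold above root in KBr, and root was 3.14-fold above shoot in NaI and 4.03-fold in KI. Its root signal in KBr was under 100, and with 100 in its place shoot was 2.20-fold above root, while the iodide ratios do not rest on a dim array. It was the 1 gene of the 9 with shoot at least 2-fold above root in both control and KBr and root at least 2-fold above shoot with both iodides, a pattern found in 0.022% of all probe sets, or 5 of 22746. CML41 turned in the same way, with root 2.75-fold and 2.06-fold above shoot in NaI and KI, but its KBr difference, shoot over root at 1.37-fold, was smaller. AT2G46600 went from a shoot signal 3.08-fold (control) and 2.86-fold (KBr) above root to near parity, with root at 1.09-fold of shoot in NaI and 1.02-fold in KI. The reversals include the root iodide signals by which the genes were chosen.

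CML38 was the 1 gene at least 4-fold higher in root than in shoot in all 4 treatments, as were 6.45% of all probe sets. The ratio was 25.3 in KBr, 60.0 in NaI and 53.7 in KI, but its shoot signal was under 100 throughout, so these are ratios against a dim array. With low signals raised to 100 they were 10.3, 25.8 and 30.1. AT5G39670 was higher in root by 8.92-fold in KBr (6.94-fold with the dim shoot signal raised to 100), 12.7-fold in NaI and 26.3-fold in KI, and fell short of 4-fold only in control. AT4G27280 was higher in root by 3.36-fold, 4.21-fold and 5.99-fold in the same order. None of the 9 was at least 4-fold lower in root in all treatments, against 7.32% of all probe sets.

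**Figure D4:**
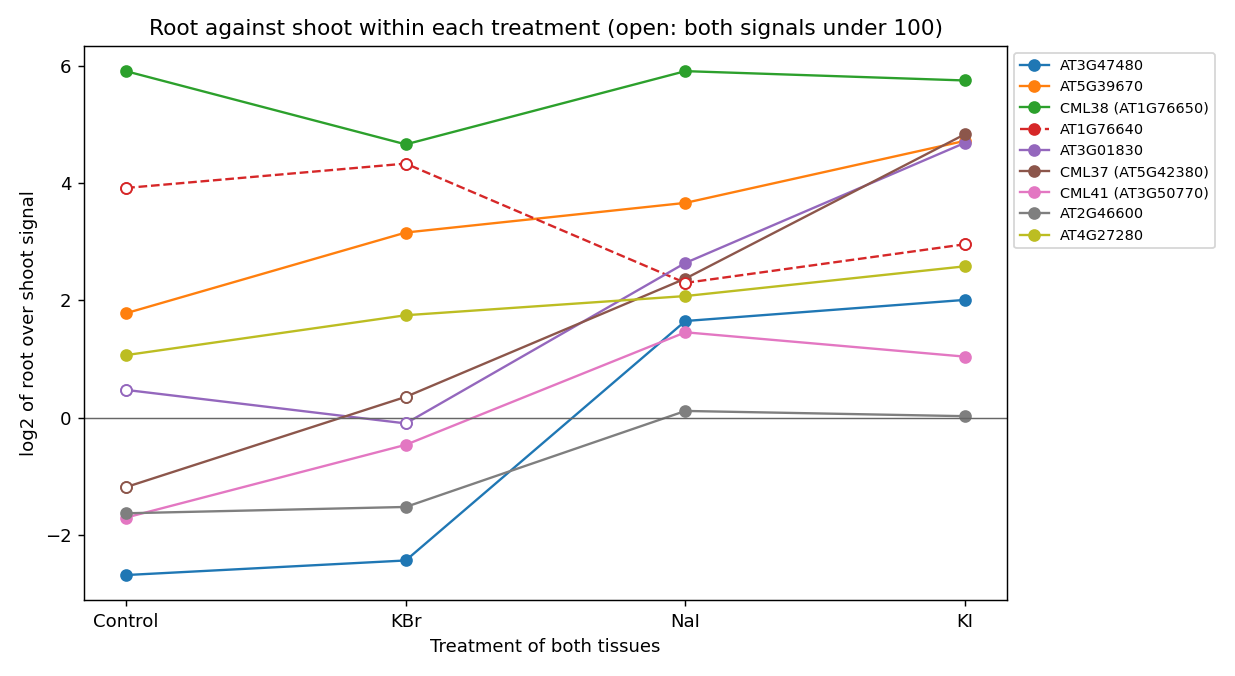
Log2 of root over shoot signal of each gene within each treatment, with 0 marking equal signals, open circles where both signals were under 100, and a dashed line for AT1G76640, which was under 100 on every array. AT3G47480, CML41 and AT2G46600 lie below 0 in control and at or above it in NaI and KI, while CML38 stays above 4 throughout.

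The difference between the tissues in the iodide response was not tested, as there is 1 array per tissue and salt. As the mean of NaI and KI over control, on the log2 scale, the root value exceeded the shoot value by 4.51 for AT3G47480, 2.95 for CML41, 2.41 for AT5G39670, 1.70 for AT2G46600 and 1.26 for AT4G27280. These 5 genes were read above 100 on at least 3 of the 4 shoot arrays. In root the control signals of AT3G47480 and CML41 were under 100. With signals under 100 raised to 100 their root values fell from 5.18 to 3.58 and from 2.35 to 1.83. CML38 had a root value of 2.67 and a nominal shoot value of 2.74, which comes from signals under 100 and became 0.08 when signals under 50 were raised to 50.

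Other genes of calcium signalling were thinly covered. Of 175 further loci in 5 lists, 13 had a probe set naming them alone, 5 calmodulin-like genes and 8 glutamate receptor-like channels, and the others were not analysed here, kinases and their sensors (70 loci) among them. In root 2 of the 13 were iodide-specific and higher, against the 1.49% of all probe sets given above, and 0 were lower, against 0.378%. In shoot 0 were called either way, against 0.0747% higher and 0.0791% lower. The median of the root log2 iodide ratio was 0.94 for the 5 calmodulin-like genes and 0.40 for the 8 channels, against -0.06 over all probe sets, and 3 of the channels did not reach 100 in root. These lists were drawn up with earlier results known.

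Among the calmodulin-like genes, AT2G41090, annotated as a calcium-binding EF-hand protein, was called in root, reading 32.1 without salt and 51.3 with KBr against 132 with NaI and 145 with KI. It was far brighter in shoot, from 17662 (control) to 21534 (NaI), still 163-fold above root with NaI and 139.7-fold with KI. The summed root signal of the green tissue markers was 274 on the control and 301 on the KBr array and lower with iodide, 202 for NaI and 159 for KI. The drop was mostly that of LHCB4.1, at 214 (control), 213 (KBr), 112 (NaI) and 106 (KI). RCA was under 100 on these arrays, at 60.6, 88.6, 90.3 and 52.4 in the same order, so it was not lower than control in NaI. Whether these markers bear on the root signal of AT2G41090 was not tested. CML23, linked to the timing of flowering, was at 112, 108, 286 and 369 in root and below 100 on all shoot arrays. CML42, known for a part in trichome branching, was at 1133, 1379, 2190 and 2152 in root, a log2 ratio of 0.95 in NaI and 0.93 in KI. CML30 went the other way, with log2 ratios of -0.74 and -0.35. CML43, named after its values were seen, was nearly flat in root at 630.3, 743, 615 and 789.6.

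Of the glutamate receptor-like genes, whose products are cation channels that can admit calcium, ATGLR1.2 was called in root, reading 49.7 without salt and 56.4 with KBr against 240.1 with NaI and 229.8 with KI. The others named did not approach the limit. GLR3.6 had log2 ratios of -0.56 in NaI and -0.90 in KI, GLR3.5 -0.43 and -0.68, and GLR1.4 0.20 and 0.29.

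The transcripts most like the 9 genes over the arrays were found by correlating log2 signals with the mean profile of the 9, taking signals under 50 as 50, over 8 arrays and 9285 probe sets that name 1 locus and reached 100 at least once. The points share tissue and treatment, so the coefficients are a description. The 5 highest were AT4G26120 (an ankyrin repeat and BTB/POZ domain protein), UGT73D1 (a UDP-glucosyl transferase), AT5G52720, AT2G30670 (of the Rossmann-fold superfamily) and AT5G60350, with Pearson coefficients of 0.993 to 0.994. UGT73D1, for example, was at 56.9, 89.0, 1162 and 1172 in root and below 30 on each shoot array, and AT5G52720 was at 20.7, 72.3, 649 and 619 in root. All 5 were below 100 in root without iodide and on every shoot array, which is the shape of AT3G01830 and CML37 rather than of all 9. The profile of each gene against the mean of the other 8 gave coefficients of 0.98 for AT3G01830 and 0.98 for CML37, 0.88 for AT5G39670, 0.85 for AT4G27280, 0.72 for CML38, 0.72 for CML41, 0.60 for AT3G47480 and 0.19 for AT2G46600. The profiles of AT3G01830 and CML37 were held at 50 on every array but root NaI and KI. Their coefficients thus rest on the iodide arrays with whose values the genes were chosen. The lowest values belonged to AT3G47480 and AT2G46600. Both had control signals higher in shoot than in root, but so did CML41, at 0.72. AT1G76640 had no profile, with every signal under 50.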

How the data were processed

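Transcripts of shoot and root were hybridised to Affymetrix ATH1 arrays, 1 for each treatment and tissue. The authors computed signals with MAS5, and each deposited value is such a signal, a linear intensity whose mean, leaving out the top and bottom 2% of probe sets, was 494 to 496 on each array. MAS5 settings, detection calls and genome build were not given in the sources used here, so no coordinates are printed, and precision is limited by the number of arrays. Log2 ratios were taken for 22746 probe sets, without 64 Affymetrix controls, and no further normalization. Of all 22810 probe sets 13513 had 1 gene symbol and 503 several in the platform table, and RefSeq (TAIR10.1, used for names and gene order) gave 13436 a locus. Calls followed the study's limits of a log2 ratio of 2 and a signal of 100, without its detection p. The signal limit was applied to the brighter array, which the methods do not specify. Genes named are the 9 loci, up to 4 per further list with the largest absolute root iodide ratios among those reaching 100 in root, and the 5 most similar profiles. AT1G76660 and CML43 were added after their values were seen. Loci, lists and tests were chosen with earlier results of these data known. Alternatives were 10 planned settings and 1 added after seeing the data. Python 3.11.15, numpy 2.4.6, pandas 2.3.3 and matplotlib 3.10.9 were used.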

Additional observations from a re-analysis of the deposited data

Results flagged for a closer look

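For 2 genes both iodide arrays lay above control in root and below it in shoot. CML41 (AT3G50770) was one of them, with a log2 iodide response 2.95 larger in root than in shoot. That value rests on a root control signal of 69.9, under 100. AT4G27280 was the other, with a difference of 1.26, and its shoot NaI log2 ratio was only -0.09. Neither difference was tested, as there is 1 array per salt and tissue. In shoot KBr was below control for both too, with log2 ratios of -0.75 and -0.71. The pattern of the 2 genes includes the root iodide signals by which the genes were chosen. Its share among all probe sets was not computed. In shoot 45.9% of all probe sets were above control in NaI and 52.8% in KI, so values below control were common. Nothing is read from the count of 2.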

How the results depend on the processing

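The count of 6 iodide-specific genes in root was 3 at a log2 ratio of 3, 2 (AT5G39670 and CML38) when both arrays had to reach 100, 3 with signals under 100 raised to 100 and 3 with KBr as baseline, and stayed within 1.5 times of 6 under the other settings. The genes changed there too. At a log2 ratio of 1 the count was 6 with CML38 lost and AT2G46600 gained, without a signal limit 5 with AT3G01830 lost, with signals raised to 50 4 with AT3G01830 and CML37 lost, and with KBr within 2-fold of control 4 with CML38 and AT3G01830 lost. In shoot it was 0 under each of the 11 settings. The 3 genes above KBr with both iodides numbered 7 at a log2 ratio of 1, 0 with a signal of 100 on both arrays, and 1 with low signals raised to 50 or to 100. The 1 gene higher in root in all treatments became 3 at a log2 ratio of 1, 2 with no signal limit and 0 with a signal of 100 on both arrays. The 2 further calcium genes became 0 at a log2 ratio of 3, with a signal of 100 on both arrays or with signals raised to 100, and 1 with signals raised to 50 or KBr as baseline. The median root log2 iodide ratio was 1.70 with signals raised to 100, where it had been 2.67. The median log2 root over shoot had been 2.30 in NaI and 2.96 in KI, both the ratios of AT1G76640, which is not read. It was 1.93 in KI with signals raised to 50, and 1.46 in NaI and 1.04 in KI with signals raised to 100. Without AT1G76640, an alternative chosen after seeing the data, it was 3.63 in KI and -0.35 in control, where it had been 0.48. Quantile normalization and median scaling moved none of these. Dim control signals limit the folds of AT3G47480, AT3G01830, CML37 and CML41. No paired analysis was possible because each treatment and tissue has 1 array.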
